A study of Mus musculus with 2 samples.

Results

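In all, 9 genes of the voltage-gated sodium channel system were followed through the neurons of the mouse locus coeruleus. They comprised 5 genes for pore-forming alpha subunits (Scn1a, Scn2a, Scn3a, Scn8a and Scn9a) and all 4 genes for the intracellular fibroblast growth factors that bind these channels (Fgf11, Fgf12, Fgf13 and Fgf14). The 9 genes were picked by symbol from the 32285 features of the count matrices, with earlier results on the same data known. In particular, the high Fgf13 level of noradrenergic cells was known when the list was made, so Fgf13 is described without a test wherever noradrenergic cells enter.

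The alpha subunit forms the sodium-selective pore that opens on depolarisation, carries the upstroke of the action potential and then inactivates. Beta subunits are small membrane proteins that attach to it and change its gating and its place in the membrane. The intracellular fibroblast growth factors, also called FGF homologous factors, are not secreted and do not act through FGF receptors; they bind the cytoplasmic tail of the alpha subunit and shift its inactivation. Ankyrin-G and beta-IV spectrin hold the complex at the axon initial segment and nodes of Ranvier. The locus coeruleus is the main source of noradrenaline in the forebrain, and its neurons fire spontaneously as slow pacemakers.

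The data were 10x Genomics droplet counts of messenger RNA from 2 libraries of locus coeruleus tissue, in which each read family was collapsed to a unique molecular identifier (UMI). All mice were wild type, of strain C57BL/6N, of both sexes and 3 to 4 weeks old, and no treated or mutant group was studied. The labels describe both a papain dissociation with methanol fixation and a nuclear isolation with a 7-AAD sort, and do not say which library came from which; "cell" below means either. The number of mice per library and any pooling are not given, and library, batch and replicate are the same thing. With library as a block in the fit, p-values measure how far class differences disagreed between these 2 libraries. That spread may be technical.

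Library 1 held 304 barcodes, with 5600693 UMIs in total and a median of 11010 in each barcode. Library 2 was shallower per barcode, with 6895380 UMIs over 2796 barcodes and a median of 1517. No barcode was shared. The series text states 2578 cells, against 3100 barcodes in the matrices and 2973 kept here. Neuron classes were set by UMIs of marker genes in each cell. Noradrenergic-like cells (Dbh, Th, Slc6a2, Slc18a2) numbered 20 in library 1 and 76 in library 2. Mesencephalic trigeminal-like cells (Piezo2, Pou4f1, Prph) numbered 12 and 39, excitatory-like cells (Slc17a6 with Lmx1b, Lhx9, Barhl1 or Tlx3 counted in) 65 and 121, inhibitory-like cells (Gad1, Gad2, Slc32a1, Slc6a5) 34 and 157, and cerebellar granule-like cells (Gabra6, Fat2, Cbln3, Neurod1) 33 and 13. A further 26 and 761 neurons passed no gate.

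Markers kept out of the gates were read as a check. For noradrenergic cells, Ddc, Phox2a and Cyb561 were highest in that class in both libraries. For the trigeminal class, Isl1 and Nefh were highest there, Ntrk3 and Slc17a7 were not, and Runx3, listed for its gate, had no UMI. For the excitatory class 1 of 4 check genes was highest, and so were 3 of 5 gate genes, Slc17a6, Lmx1b and Lhx9. Barhl1 had no UMI in that class, and Tlx3 stood at 12.4 and 18.6 CPM, below the 29.6 and 92.3 CPM of trigeminal cells. The name of that class therefore rests on those 3 gate genes. Of the 20 noradrenergic cells of library 1, 8 carried their 4 gate genes at under 1000 CPM (UMI counts of a gene scaled to a fixed total for the cell or class), against 1 of 76 in library 2. Values with those cells left out are given below for Fgf13, for Scn9a and for the balance of Fgf12 and Fgf13. Leaving them out also lowered the noradrenergic level of library 1 from 385 to 327 CPM for Fgf12 and from 77.4 to 51.6 CPM for Scn1a. Scn8a against excitatory and Scn9a against inhibitory cells, not called in the reported fit, then passed the threshold used below as lower in noradrenergic cells. The granule sum of library 2 held 17195 UMIs in all, so 3 UMIs there amount to 174 CPM.

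Of the factor genes, Fgf12, Fgf13 and Fgf14 are long and use several first exons, which encode different amino termini. On GRCm38, Fgf13 lies on the minus strand of chrX:59062145-59568071, Fgf12 on the minus strand of chr16:28160098-28753068, and Fgf14 on the minus strand of chr14:123977907-124677127. Of the alpha genes, 4 lie together on chromosome 2: Scn3a (65457118 to 65567627), Scn2a (65620771 to 65767447), Scn1a (66270778 to 66440840) and Scn9a (66480080 to 66634962), all on the minus strand but Scn2a. Scn8a lies apart on the plus strand of chr15:100869858-101045938. Fgf11 is the compact member, at chr11:69796068-69801857 on the minus strand.

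The 250 bases before selected starts are printed for Fgf13 and Fgf12, whose levels ran in opposite directions between noradrenergic and trigeminal cells, and for Scn9a, which was high in the latter, with every CG pair in capitals, 5′ to 3′ on the coding strand (RefSeq, GRCm38.p6). The starts of Fgf13 at the first and the second of these windows are alternative ones: chrX:59567349-59567598 and chrX:59166089-59166338. Fgf12 is shown at chr16:28753244-28753493 and Scn9a at chr2:66634963-66635212.
Fgf13, first window: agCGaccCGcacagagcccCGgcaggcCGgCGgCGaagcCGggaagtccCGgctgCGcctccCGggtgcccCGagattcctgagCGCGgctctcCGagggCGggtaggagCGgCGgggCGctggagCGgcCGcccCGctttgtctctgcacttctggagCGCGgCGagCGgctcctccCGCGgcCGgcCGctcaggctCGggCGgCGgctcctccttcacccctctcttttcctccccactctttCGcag
Fgf13, second window: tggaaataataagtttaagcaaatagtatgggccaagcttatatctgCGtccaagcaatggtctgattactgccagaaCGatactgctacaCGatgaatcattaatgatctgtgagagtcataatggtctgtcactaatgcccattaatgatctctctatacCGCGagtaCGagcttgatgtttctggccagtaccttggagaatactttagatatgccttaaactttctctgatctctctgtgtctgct
Fgf12: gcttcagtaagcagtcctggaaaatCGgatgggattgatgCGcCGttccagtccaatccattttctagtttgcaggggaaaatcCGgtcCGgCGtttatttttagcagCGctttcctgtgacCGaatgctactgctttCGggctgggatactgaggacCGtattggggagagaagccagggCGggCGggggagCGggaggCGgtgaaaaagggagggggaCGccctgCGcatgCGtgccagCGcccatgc
Scn9a: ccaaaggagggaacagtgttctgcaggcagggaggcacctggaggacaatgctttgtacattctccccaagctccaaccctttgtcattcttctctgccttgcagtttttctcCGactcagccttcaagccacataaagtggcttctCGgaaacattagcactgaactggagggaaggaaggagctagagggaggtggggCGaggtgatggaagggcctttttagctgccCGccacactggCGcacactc
These windows held 33, 6, 18 and 5 CG pairs in that order, where the median of 32851 mouse promoter windows of this length was 6 and the 90th percentile 25. The first Fgf13 window lies above that percentile and the second at the median. Both genes have further starts that are not printed. Over windows of 300 bases, which run on past the start, the Fgf13 starts held 3, 40, 6 and 37 CG pairs. The Fgf12 starts held 18, 34, 29 and 22. The median of all promoters at that length was 7, so the printed windows do not rank the 2 genes. Over the 16 promoters found for 8 of the 9 genes (300 bases, both strands), the letters TTCAGCACC, part of the RE1 silencer element, had no match, and they occur in 0.371% of all promoters. TATAAA had a match in 2 of 16, 1 of Fgf13 and 1 of Scn2a, against 13.6% of all promoters. The Fgf13 match lies beyond the end of the second printed window, and so after that start. UMIs counted at the 3′ end do not tell which start was used.

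Of the 5 neuron classes, noradrenergic cells carried the highest Fgf13 and Scn3a and the lowest Fgf12. Their Scn1a and Scn8a levels were the lowest on average, overlapping those of granule cells. Trigeminal cells carried the highest Scn1a, Scn8a and Scn9a and the lowest Fgf14 and Scn2a. Of the 7 genes other than Fgf13 that passed the filter on low counts, 7 differed across the 5 classes, where 53.8% of all 9211 genes tested did (edgeR quasi-likelihood F test on class sums, library as a block, Benjamini-Hochberg adjusted p under 0.05). Their adjusted p from edgeR ran from 4.88e-22 for Scn9a to 0.0414 for Scn2a. A gene that passes the filter through its high class alone had to differ, so this count is not used as support. The members are given below by their levels and by contrasts between classes.

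**Figure D1:**
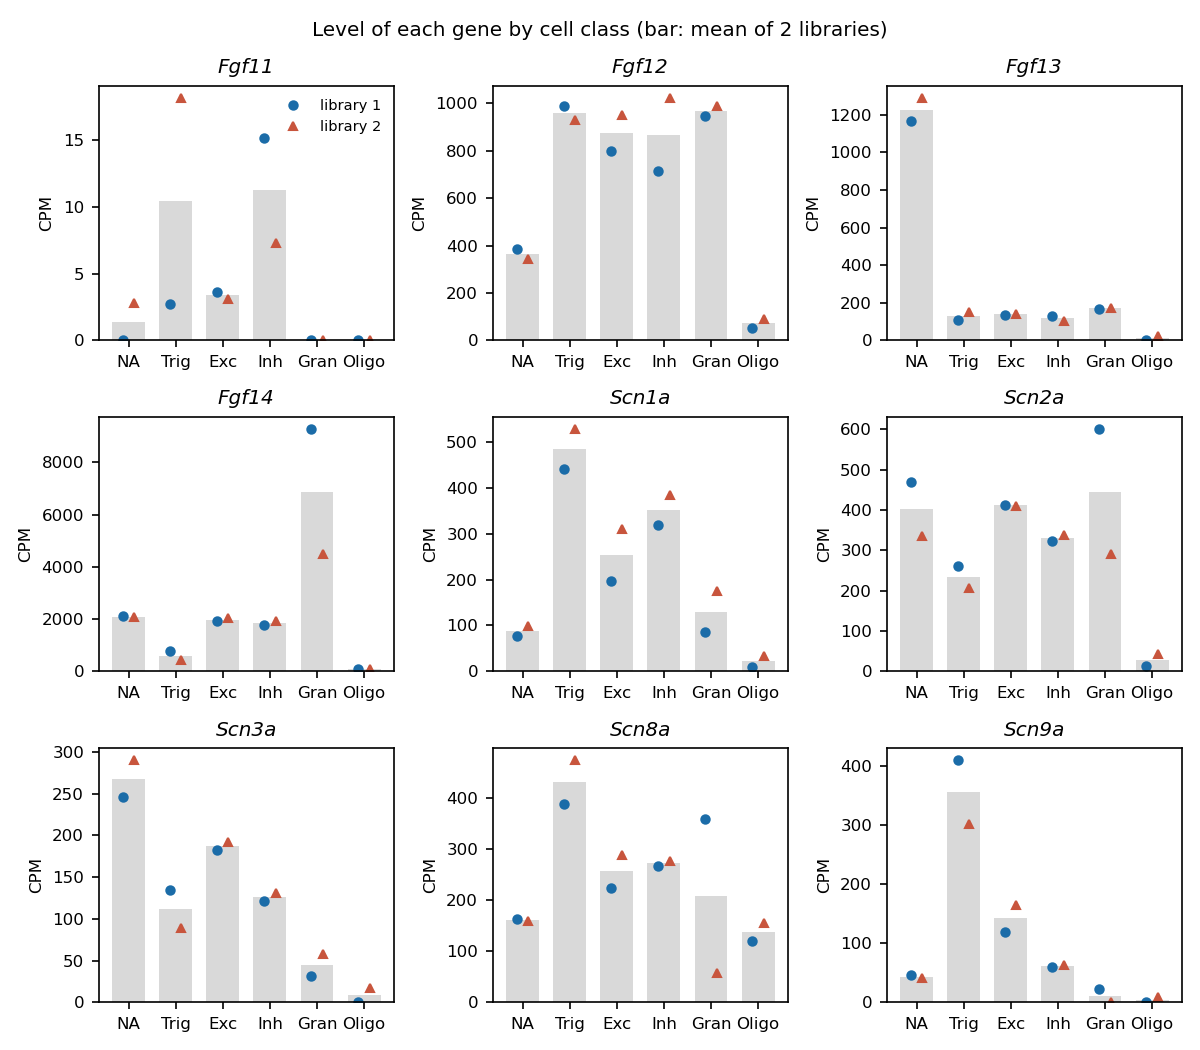
Level of each of the 9 genes in CPM (vertical axes, linear, starting at 0 and scaled per gene) in 5 neuron classes and in oligodendrocytes (NA noradrenergic, Trig trigeminal, Exc excitatory, Inh inhibitory, Gran granule, Oligo oligodendrocyte). Points are the 2 libraries and grey bars their mean; Fgf13 stands at 1165 and 1289 CPM in noradrenergic cells and at no more than 174 CPM in any other class shown.

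Fgf13 encodes a factor that also binds microtubules. Its level in noradrenergic cells was 1165 CPM in library 1 and 1289 CPM in library 2 (mean 1227 ± 87.2, SD, n = 2). In trigeminal cells it was 108 and 152 CPM, in excitatory cells 137 and 141, in inhibitory cells 131 and 104, and in granule cells 166 and 174. The noradrenergic libraries therefore lay apart from all others, while trigeminal levels overlapped those of excitatory and those of inhibitory cells. The log2 fold of noradrenergic over trigeminal cells was 3.40 in library 1 and 3.06 in library 2, and over excitatory, inhibitory and granule cells the fitted log2 folds were 3.06, 3.30 and 2.81. With the weakly gated cells left out, noradrenergic cells stood at 1341 and 1295 CPM.

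The neurons that passed no gate carried Fgf13 at 258 and 220 CPM. Oligodendrocytes, which should carry little of it, held 4.70 and 25.5 CPM. Free RNA in droplets can give UMIs to cells that do not make a gene, so shares of cells were compared after each cell was thinned to 1000 UMIs. In library 2, 53 of 74 noradrenergic cells (71.6%, 95% exact binomial interval 59.9 to 81.5) then held an Fgf13 UMI, against 3 of 39 trigeminal cells (7.69%, 1.61 to 20.9), 19 of 120 excitatory cells (15.8%) and 10 of 494 oligodendrocytes (2.02%, 0.975 to 3.69). In library 1 the shares were 10 of 20, 1 of 12, 13 of 65 and 1 of 39 cells. Before thinning they were 73 of 76 noradrenergic and 24 of 564 oligodendrocytes in library 2, whose median depths were 7653.5 and 1610 UMIs, and 18 of 20 and 1 of 39 in library 1, at medians of 67768.5 and 9819 UMIs. The thinned trigeminal shares have intervals that reach down to the oligodendrocyte share. Before thinning, 12 of 12 trigeminal cells of library 1 and 29 of 39 of library 2 held an Fgf13 UMI, at medians of 58062 and 12384 UMIs. These intervals cover counting error only.

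Fgf12 encodes a factor whose mutation causes an early epileptic encephalopathy in humans. Its level was 385 and 345 CPM in noradrenergic cells, 990 and 928 in trigeminal, 799 and 952 in excitatory, 713 and 1022 in inhibitory, and 945 and 989 in granule cells. Noradrenergic cells were the low class in both libraries, and the 4 other classes overlapped one another. Against trigeminal cells the log2 fold was -1.45 ± 0.31 (SE; -1.36 and -1.42 in the libraries; edgeR adjusted p = 4.62e-05). It was -1.33 ± 0.31 against excitatory, -1.33 ± 0.31 against inhibitory and -1.33 ± 0.34 against granule cells (edgeR adjusted p = 0.000384, 0.000395 and 0.0011). The trigeminal call was lost when cells were thinned to 1000 UMIs (edgeR adjusted p = 0.214), and the granule call when only those 2 classes were fitted (edgeR adjusted p = 0.249).

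Fgf14 encodes a factor of the axon initial segment whose mutation causes a spinocerebellar ataxia in humans. Its level was 2132 and 2071 CPM in noradrenergic cells, close to the 1911 and 2049 of excitatory and the 1778 and 1920 of inhibitory cells. Granule cells stood far above at 9276 and 4478 CPM, the second value resting on 77 UMIs. Trigeminal cells stood below at 796 and 419 CPM, and the ranges of the highest and lowest class were clear of the others. Single trigeminal cells ran from 59.8 to 1330 CPM in library 1 and from 34.5 to 1721 CPM in library 2. Noradrenergic exceeded trigeminal cells by a log2 fold of 1.80 ± 0.34 (1.42 and 2.30 in the libraries; edgeR adjusted p = 2.96e-06) and lay below granule cells by -1.57 ± 0.34 (-2.12 and -1.11; edgeR adjusted p = 9.85e-05). The granule call was lost when only those 2 classes were fitted (edgeR adjusted p = 0.251). Trigeminal cells also lay below excitatory cells, by -1.80 ± 0.34 (edgeR adjusted p = 3.25e-06).

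Fgf11, the remaining factor, was scarce. It had 34 UMIs over all neuron classes together and did not pass the filter on low counts. Without that filter it was called across classes and lower in noradrenergic than in trigeminal and inhibitory cells (edgeR adjusted p = 0.0206, 0.0212 and 0.0168), while DESeq2 gave adjusted p = 0.384 across classes and 0.24 against trigeminal cells. Its highest level was 18.1 CPM, in trigeminal cells of library 2 on 11 UMIs, with 2.69 CPM in library 1. Noradrenergic cells held 0 and 2 UMIs, where 3 UMIs would be 2.44 and 4.21 CPM.

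**Figure D2:**
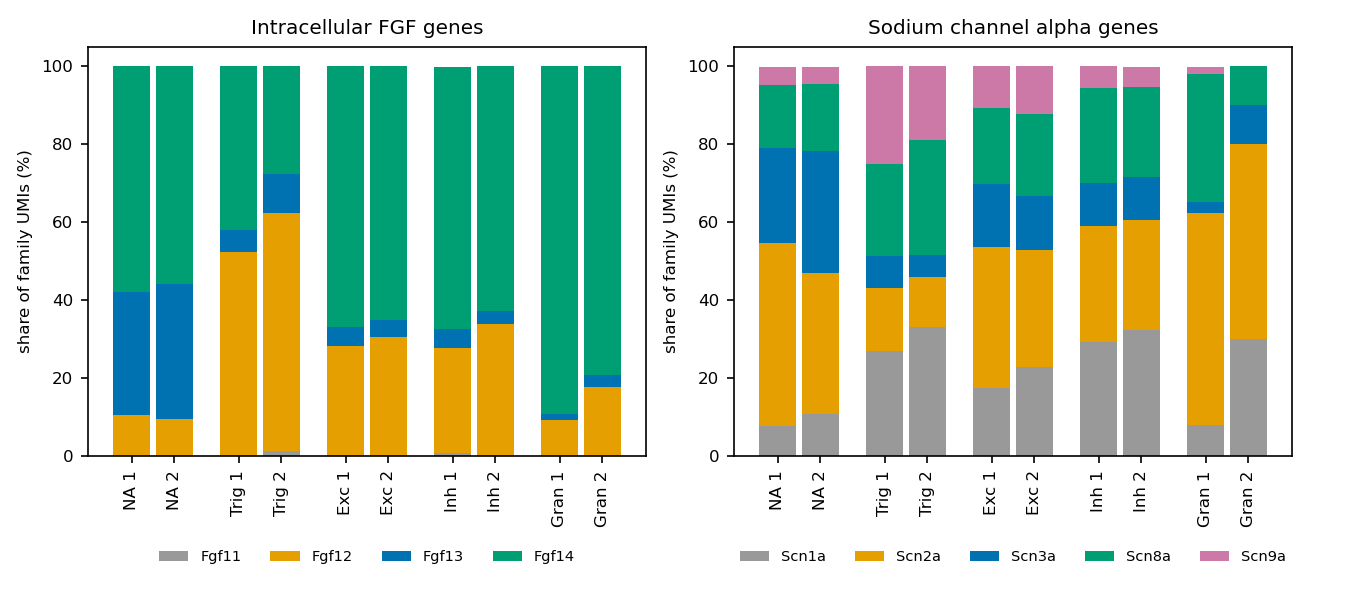
Share of the UMIs of each family (vertical axis, percent) taken by each gene, with 1 stacked bar per neuron class and library (1 or 2 after the class name; abbreviations as NA noradrenergic, Trig trigeminal, Exc excitatory, Inh inhibitory, Gran granule). Fgf13 takes 31.7% and 34.8% of the factor UMIs in noradrenergic cells, and Fgf12 takes 52.2% and 61.2% in trigeminal cells; the channel bar of Gran 2 rests on 10 UMIs.

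Shares within the family do not depend on the total UMIs of a class. Of the UMIs of the 4 factor genes in noradrenergic cells, Fgf13 made up 31.7% in library 1 (95% exact binomial interval 30.3 to 33.0) and 34.8% in library 2 (32.9 to 36.6). In trigeminal cells its share was 5.67% and 10%, in excitatory cells 4.82% and 4.48%, in inhibitory cells 4.96% and 3.40%, and in granule cells 1.60% and 3.09%. Fgf12 went the other way, at 10.4% and 9.30% in noradrenergic cells and 52.2% and 61.2% in trigeminal cells. Fgf14 held 57.9% and 55.9% in noradrenergic cells, below the 67.0% and 65.1% of excitatory cells and above the 42.0% and 27.6% of trigeminal cells. Capture at the 3′ end can differ between genes, so a share is compared across classes and not between genes.

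The balance of Fgf12 and Fgf13 was also counted cell by cell. Among cells with at least 10 UMIs of the pair, Fgf13 outnumbered Fgf12 in 15 of 19 noradrenergic cells of library 1 and in 49 of 50 of library 2, and in 0 of 12 and 0 of 22 trigeminal cells. The median Fgf13 share of the pair per cell was 76.4% and 80% in noradrenergic cells and 8.09% and 13.8% in trigeminal cells. In library 1 the noradrenergic shares ran from 0 to 90.8%. Where the gate genes reached 1000 CPM, 12 of 12 cells of library 1 held more Fgf13 than Fgf12, with shares of 63.9% to 90.8%. Cells of 1 library are not replicates, and these counts carry no test.

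**Figure D3:**
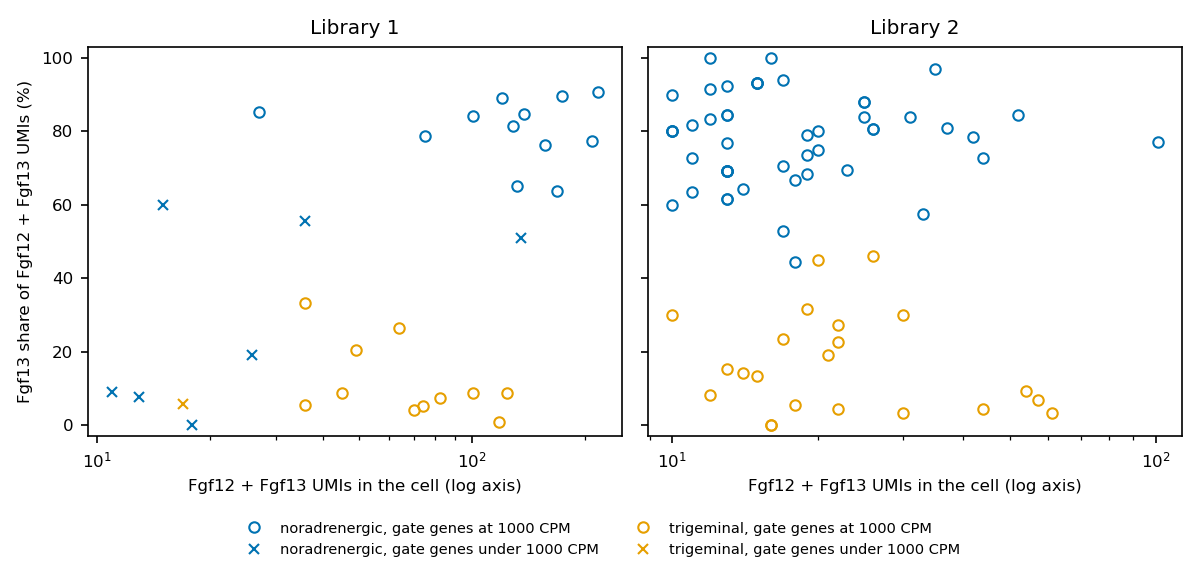
Fgf13 share of the Fgf12 and Fgf13 UMIs in single cells (vertical axis, percent) against the UMIs of both genes in the cell (horizontal axis, logarithmic), for cells with at least 10 such UMIs. Blue is noradrenergic and orange trigeminal; crosses mark cells whose gate genes summed to under 1000 CPM. The median share is 76.4% and 80% in noradrenergic cells of the 2 libraries and 8.09% and 13.8% in trigeminal cells.

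Among the channels, Scn1a encodes Nav1.1, the alpha subunit best known from fast-spiking inhibitory neurons and from Dravet syndrome in humans. Its level was 77.4 and 98.2 CPM in noradrenergic cells, 441 and 527 in trigeminal, 196 and 310 in excitatory, 318 and 385 in inhibitory, and 85.1 and 174 in granule cells. The order from trigeminal through inhibitory to excitatory cells was the same in both libraries without overlap, while noradrenergic and granule levels overlapped at the low end. The log2 fold of noradrenergic cells was -2.53 ± 0.30 against trigeminal (edgeR adjusted p = 5.91e-13), -1.58 ± 0.30 against excitatory (edgeR adjusted p = 8.11e-06) and -2.09 ± 0.30 against inhibitory cells (edgeR adjusted p = 4.4e-09). Trigeminal exceeded excitatory cells by 0.95 ± 0.28 (edgeR adjusted p = 0.00323). Inhibitory against excitatory cells gave 0.51 ± 0.28 and did not pass (edgeR adjusted p = 0.62), although it did when only those 2 classes were fitted (edgeR adjusted p = 0.0184).

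Scn9a encodes Nav1.7, known from peripheral sensory and sympathetic neurons and from inherited disorders of pain in humans. Trigeminal cells carried it at 410 and 302 CPM, excitatory cells at 120 and 166, inhibitory cells at 60.7 and 63.8, and noradrenergic cells at 46.4 and 40.7. Granule cells had 22.4 CPM in library 1 and no UMI in library 2. The steps between these class levels, from trigeminal to noradrenergic, were clear of overlap. Single trigeminal cells were uneven. In library 1 they held 0 to 61 Scn9a UMIs (median 31.5), with 0, 1 and 2 in cells of 33475, 96300 and 110216 UMIs. In library 2 they held 0 to 15 (median 4). Its deepest trigeminal cells, of 25465, 38249, 39352, 50316 and 58037 UMIs, held 0, 0, 3, 1 and 4. The granule level cannot be placed, since 3 UMIs in library 2 would be 174 CPM. Noradrenergic lay below trigeminal cells by -3.08 ± 0.29 on the log2 scale (-3.06 and -2.80 in the libraries; edgeR adjusted p = 6.92e-18) and below excitatory cells by -1.76 ± 0.30 (edgeR adjusted p = 7.79e-07). Trigeminal exceeded excitatory cells by 1.32 ± 0.26 (1.75 and 0.85 in the libraries; edgeR adjusted p = 1.02e-05).

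The noradrenergic Scn9a level of library 1 depended on the gate. With the weakly gated cells left out it was 24.3 CPM, while library 2 stayed at 40.9 CPM. Among those 12 cells, 4 held an Scn9a UMI. After thinning, 1 of 74 noradrenergic cells of library 2 held an Scn9a UMI (1.35%, 0.0342 to 7.30), an interval that takes in the oligodendrocyte share (8 of 494, 1.62%). For trigeminal cells it was 15 of 39 (38.5%, 23.4 to 55.4). In library 1 the thinned shares were 2 of 20, 0 of 39 and 3 of 12 cells. Before thinning, oligodendrocytes stood at 0 and 9.81 CPM, below the noradrenergic level in both libraries. At that unequal depth 11 of 20 and 13 of 76 noradrenergic cells held an Scn9a UMI, against 0 of 39 and 10 of 564 oligodendrocytes. An annotated transcript on the other strand, Gm13629, shares 180 exonic bases with Scn9a; it stood at 64.6 and 114 CPM in trigeminal and 4.07 and 1.40 CPM in noradrenergic cells. Strand use in counting is not given in the sources used here, and how reads were assigned where this pair overlaps was not checked.

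Scn8a encodes Nav1.6, the channel of mature axon initial segments and nodes. It stood at 387 and 473 CPM in trigeminal cells, 265 and 277 in inhibitory, 224 and 288 in excitatory, and 162 and 160 in noradrenergic cells. Granule cells gave 358 CPM in library 1 and 58.2 CPM on 1 UMI in library 2. Oligodendrocytes held 120 and 155 CPM, and 58 of 494 of them in library 2 (11.7%) had an Scn8a UMI after thinning. The noradrenergic share of 9 of 74 (12.2%) was at that level and does not set these cells apart from oligodendrocytes. Before thinning, at unequal depth, 19 of 20 and 46 of 76 noradrenergic cells held an Scn8a UMI, against 22 of 39 and 118 of 564 oligodendrocytes. Scn8a took 83.6% and 59.4% of the UMIs of the 5 alpha genes in oligodendrocytes. Their level is therefore not used as a floor for this gene, and its source was not tested. The log2 fold of noradrenergic against trigeminal cells was -1.48 ± 0.29 (-1.24 and -1.55 in the libraries; edgeR adjusted p = 1.31e-05), which narrowly missed the threshold after thinning (edgeR adjusted p = 0.0578).

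The other Scn8a contrasts were less firm. Noradrenergic lay below inhibitory cells by -0.83 ± 0.30 (edgeR adjusted p = 0.0289), a call that DESeq2, the fit with no low-count filter, the fit without the library block and thinning each ended. Noradrenergic lay below granule cells by -0.998 ± 0.36 in the fit (edgeR adjusted p = 0.0274), but the libraries disagreed, at -1.13 in library 1 and 1.41 in library 2. DESeq2, the fit with no low-count filter, the fit without the library block, the fit of those 2 classes alone and thinning each ended that call. Trigeminal exceeded excitatory cells by 0.74 ± 0.29 (edgeR adjusted p = 0.0327), a call that DESeq2, the fit without the library block and thinning each ended.

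Scn3a encodes Nav1.3, an alpha subunit abundant in the embryonic and neonatal rodent brain. It was highest in noradrenergic cells, at 246 and 290 CPM, followed by excitatory cells at 182 and 192, inhibitory cells at 121 and 131, trigeminal cells at 134 and 89.0, and granule cells at 31.4 and 58.2. Noradrenergic, excitatory and inhibitory levels did not overlap, whereas inhibitory and trigeminal levels did. The log2 fold of noradrenergic cells was 1.19 ± 0.28 against trigeminal (0.86 and 1.67 in the libraries; edgeR adjusted p = 0.000183), 1.00 ± 0.28 against inhibitory (edgeR adjusted p = 0.00347) and 2.91 ± 0.51 against granule cells (edgeR adjusted p = 1.7e-06). Against excitatory cells it was 0.44 ± 0.26 and did not pass (edgeR adjusted p = 0.229). Thinning ended the trigeminal and inhibitory calls (edgeR adjusted p = 0.0941 and 0.153).

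Scn2a encodes Nav1.2, the channel of developing and unmyelinated axons and of proximal initial segments. Its levels were the most even: 469 and 337 CPM in noradrenergic, 413 and 410 in excitatory, 324 and 339 in inhibitory, 600 and 291 in granule, and 261 and 208 in trigeminal cells. Only trigeminal cells stood clear of the rest. Trigeminal lay below excitatory cells by -0.84 ± 0.30 on the log2 scale (edgeR adjusted p = 0.0183), and the call was lost without the library block and after thinning. Noradrenergic exceeded trigeminal cells by 0.71 ± 0.30, just short of the threshold (edgeR adjusted p = 0.0517), and passed it under 8 alternative settings, DESeq2 among them.

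Shares of the 5 alpha genes were compared across classes in the same way, and those of Scn2a and Scn3a were larger in noradrenergic cells and those of Scn1a, Scn8a and Scn9a larger in trigeminal cells. In noradrenergic cells Scn2a took 46.9% and 36.4% of the UMIs and Scn3a 24.6% and 31.4%, together with 16.2% and 17.3% for Scn8a, 7.73% and 10.6% for Scn1a, and 4.64% and 4.39% for Scn9a. In trigeminal cells Scn1a took 27.0% and 33.0%, Scn8a 23.7% and 29.6%, and Scn9a 25.1% and 18.9%, leaving 16.0% and 13.0% for Scn2a and 8.23% and 5.57% for Scn3a. The shares of excitatory cells fell between these within both libraries for each of the 5 genes. In inhibitory cells the Scn1a share, 29.2% and 32.2%, overlapped that of trigeminal cells, while the Scn9a share was 5.57% and 5.34%.

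**Figure D4:**
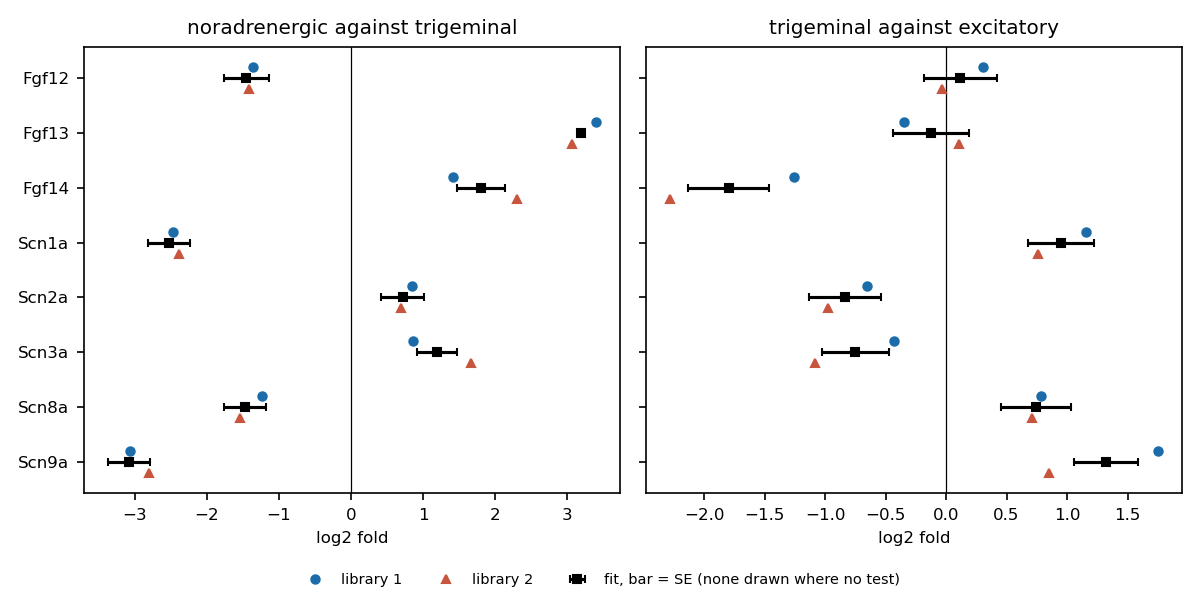
Log2 fold of each tested gene between noradrenergic and trigeminal cells (left) and between trigeminal and excitatory cells (right). Black squares are the fit with its standard error, circles and triangles the fold within library 1 and library 2, and no error is drawn for Fgf13 on the left, where no test is given. Fgf14, Scn2a and Scn3a lie right of 0 on the left and left of 0 on the right, while Scn1a, Scn8a and Scn9a do the reverse.

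Counted by contrast with Fgf13 left out wherever noradrenergic cells enter, 6 of 7 tested genes differed between noradrenergic and trigeminal cells, 2 higher and 4 lower, where 32.7% of all genes did (16.8% higher, 15.9% lower). The other noradrenergic contrasts called 3 of 7 genes against excitatory cells, all lower (22% of all genes, 10.4% lower), 4 of 7 against inhibitory cells, 1 higher and 3 lower (25%, with 13.3% higher and 11.8% lower), and 4 of 7 against granule cells, 1 higher and 3 lower (27.5%, with 16.4% higher and 11.1% lower). The median log2 fold of the 7 genes was -1.45, -0.73, -0.59 and -0.34 in these contrasts, beside 0.01, -0.01, -0.03 and 0.26 for all genes. With Fgf13 included, the medians of the 8 genes were -0.37, -0.43, -0.25 and -0.32, and the genes went both ways. Between trigeminal and excitatory cells 6 of 8 were called, 3 in each direction (35.6%, with 18.2% higher and 17.4% lower). Between inhibitory and excitatory cells 1 of 8 was called (1.99%, with 1.16% lower): Scn9a, lower by -1.17 ± 0.31 (edgeR adjusted p = 0.0162), a call that was lost without the library block (edgeR adjusted p = 0.0602). The contrasts share classes and so are not independent.

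Of the other alpha genes, Scn4a, Scn7a, Scn10a and Scn11a were read, and Scn7a passed the filter on low counts. Scn7a, which encodes the atypical sodium-sensing channel Nax, stood at 303 and 256 CPM in trigeminal cells and at 2.44 and 4.21 CPM, 3 UMIs in each library, in noradrenergic cells. It stood at 1.45 and 7.74 CPM in excitatory and 3.79 and 20.0 CPM in inhibitory cells, on 2 to 11 UMIs. It passed the filter on low counts through the trigeminal class, so no test is given. Scn4a and Scn10a, the muscle and nociceptor channels, had 0 UMIs in the 5 classes, and Scn11a had 11.

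Of the beta subunit genes, Scn4b, whose product can block open channels and carry resurgent current, stood at 104 and 107 CPM in trigeminal cells and had no UMI in noradrenergic cells, at least 68.0-fold lower by the limit of 3 UMIs over both libraries. Scn2b was higher in noradrenergic cells, 84.7 and 65.9 against 40.4 and 29.7 CPM (log2 fold 1.04 ± 0.31; edgeR adjusted p = 0.00507). Scn3b stood at 114 and 78.5 CPM in noradrenergic and 54.5 and 52.7 CPM in excitatory cells (log2 fold 0.79 ± 0.28; edgeR adjusted p = 0.0301).

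In excitatory cells Scn4b stood at 1.45 and 4.65 CPM, on 2 and 3 UMIs, and since it passed the filter on low counts through the trigeminal class no test is given. Trigeminal cells were lower than excitatory cells in Scn2b (log2 fold -1.14 ± 0.31; edgeR adjusted p = 0.0019).

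Of the 6 genes for the scaffold of the initial segment and node (Ank2, Ank3, Sptbn4, Sptan1, Nfasc, Nrcam), 1 was higher and 1 lower in noradrenergic than in trigeminal cells, a share close to the 32.7% of all genes called there. Nrcam, a cell adhesion molecule that clusters channels at nodes, stood at 276 and 223 CPM against 53.8 and 87.4 CPM (log2 fold 1.79 ± 0.30; edgeR adjusted p = 2.06e-07). Sptan1, alpha-II spectrin, was lower in noradrenergic cells at 343 and 356 against 747 and 722 CPM (-1.13 ± 0.29; edgeR adjusted p = 0.000876). Sptbn4, beta-IV spectrin, was lower in noradrenergic than in excitatory and inhibitory cells, with log2 folds of -0.75 ± 0.27 and -0.85 ± 0.28 (edgeR adjusted p = 0.0337 and 0.0166). Ank3, ankyrin-G, was lower in trigeminal than in excitatory cells (-0.83 ± 0.31; edgeR adjusted p = 0.0266), but oligodendrocytes carried it at 2959 and 2624 CPM, above the neuron classes. In trigeminal against excitatory cells, where 18.2% of all genes were higher and 17.4% lower, 1 of the 6 was higher, Sptan1 (1.03 ± 0.29; edgeR adjusted p = 0.0026), and 3 were lower, Nrcam by -1.61 ± 0.30 (edgeR adjusted p = 3.37e-06).

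The leak channel Nalcn and its partners Unc79, Unc80 and Fam155a set the resting sodium conductance of neurons. Unc80 was lower in noradrenergic than in trigeminal cells (log2 fold -0.81 ± 0.29, with -0.28 and -1.19 in the libraries; edgeR adjusted p = 0.0222), and the other 3 did not pass there. Nalcn and Fam155a were lower in trigeminal than in excitatory cells (-0.75 ± 0.29 and -0.80 ± 0.31; edgeR adjusted p = 0.0314 and 0.0349). Fam155a was also lower in noradrenergic than in granule cells, 1929 and 2158 against 5496 and 6862 CPM (-1.38 ± 0.32; edgeR adjusted p = 0.000322). Nalcn stood at 265 and 245 CPM in noradrenergic, 194 and 132 CPM in trigeminal and 255 and 285 CPM in excitatory cells.

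Among the regulators, the calmodulin gene Calm2, whose protein binds the same channel tail as the factors, was higher in noradrenergic than in inhibitory cells (log2 fold 0.83 ± 0.30; edgeR adjusted p = 0.0304). Calm2 and Calm3 were higher in noradrenergic than in granule cells, with log2 folds of 1.85 and 2.27. Nedd4l, the ubiquitin ligase that removes sodium channels from the membrane, was lower in noradrenergic than in excitatory cells, 187 and 164 against 305 and 308 CPM (-0.88 ± 0.28; edgeR adjusted p = 0.0156), and lower than in inhibitory cells (-0.98 ± 0.29; edgeR adjusted p = 0.00613). Mapk8ip2, a scaffold that binds the factors, was higher in trigeminal than in excitatory cells (0.97 ± 0.27; edgeR adjusted p = 0.00188). Between noradrenergic and trigeminal cells Mapk8ip2 was lower in the former by -0.70 ± 0.26 (edgeR adjusted p = 0.0289).

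Of 10 secreted fibroblast growth factors, which unlike the 4 intracellular ones act on receptors, Fgf1 and Fgf9 passed the filter on low counts. Fgf1 stood at 295 and 376 CPM in trigeminal cells, 52.1 and 47.7 CPM in noradrenergic cells and 26.2 and 38.7 CPM in excitatory cells. The log2 fold was -2.77 ± 0.27 for noradrenergic against trigeminal cells (edgeR adjusted p = 6.4e-17) and 3.38 ± 0.29 for trigeminal against excitatory cells (edgeR adjusted p = 1.93e-20). Fgf1 was also at 108 and 119 CPM in oligodendrocytes. Fgf9 stood at 11.4 and 18.2 CPM in noradrenergic and 26.9 and 87.4 CPM in trigeminal cells, a log2 fold of -1.90 ± 0.39 with -1.05 in library 1 and -2.09 in library 2 (edgeR adjusted p = 1.95e-05).

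Outside neurons the factor genes were not equally low. Oligodendrocyte precursors carried Fgf12 at 640 and 603 CPM and Fgf14 at 1227 and 448 CPM, against 54.1 and 90.2 CPM and 77.6 and 90.3 CPM in oligodendrocytes. Astrocytes carried Fgf14 at 385 and 730 CPM. Fgf13 stayed at 64.0 and 77.2 CPM in precursors and 17.8 and 40.6 CPM in astrocytes. The precursor sums rest on 13 and 40 cells and were not tested.

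The genes whose levels were most like those of Fgf13 over the 10 class and library sums were Slc6a2 (Pearson r = 0.973 of log2(CPM + 10)), Chodl (0.973), Dbh (0.972), Gal (0.966) and Slc10a4 (0.965), out of 6835 genes with a mean of at least 20 CPM. Slc6a2, the noradrenaline transporter, and Dbh, dopamine beta-hydroxylase, are genes of the noradrenergic gate, and Gal encodes galanin. For Scn9a they were Adgrl2 (0.959), Efnb2 (0.959), Gm30382 (0.956), Spire2 (0.949) and Tshz2 (0.942). The 10 sums come from 2 libraries and differ in depth, and these values are a description.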

How the data were processed

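The matrices hold the deposited counts, whole UMIs for each gene in each barcode, not normalized. The submitters' processing notes name Cell Ranger 7.0, Seurat, mm10 and GRCm38, while the file headers name Cell Ranger 6.1.2; the handling of intronic reads is not given in the sources used here. Barcodes were kept from 300 detected genes upward where mitochondrial genes took no more than 20% of UMIs, and the highest Scrublet scores (scanpy 1.11.5) were removed at 0.8% per 1000 barcodes, 1 in library 1 and 61 in library 2. A neuron needed 0.5% of its UMIs from 10 pan-neuronal genes. A class needed 3 gate UMIs from 2 genes (noradrenergic, with Dbh or Slc6a2 among them, and trigeminal), 2 from 2 genes (granule) or 2 (inhibitory; excitatory with Slc17a6; glia). A cell passing several gates needed 3 times the UMIs of every other gate.

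UMIs were summed per class and library, giving 10 sums of 17195 to 1375174 UMIs, and tested in edgeR 4.0.16 (quasi-likelihood, TMM, filterByExpr, library as a block by origin of the cells, 4 residual degrees of freedom, Benjamini-Hochberg over 9211 genes, threshold 0.05). Standard errors are the absolute log2 fold over the root of F. Folds within a library used a prior count of 2. The test was also run on simulated counts. These held no library effect, so they cannot show how it behaves where the 2 libraries disagree. Positions come from GENCODE M21 on GRCm38. The members, gene lists, gates and tests were chosen with earlier results of these data known. Named genes were all members and, of every other list, up to 3 genes per contrast with the largest fold among those called with 1 sign in both libraries. Alternatives were DESeq2 1.42.0, RLE normalization, no low-count filter, no library block, fits of 2 classes, other doublet and gene minimums, 1 more gate UMI, thinning to 1000 UMIs, leaving out either library and, added after marker UMIs of the gated cells were seen, gate genes at 1000 CPM. Some genes of these lists are not reported here.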

Additional observations from a re-analysis of the deposited data

How the results depend on the processing

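Counts of called members stayed within 1.5 times of the reported ones under DESeq2, RLE normalization, no low-count filter, the doublet and gene minimum settings, 1 more gate UMI and gate genes at 1000 CPM. Thinning to 1000 UMIs, which left 999 genes to test, called 4 members across classes (from 7), 3 between noradrenergic and trigeminal (from 6), 2 between noradrenergic and inhibitory (from 4), 2 between trigeminal and excitatory (from 6) and 0 between inhibitory and excitatory cells (from 1; 15 of all genes called by edgeR and 71 at unadjusted p under 0.05). Fitting only the classes compared called 1 between noradrenergic and granule (from 4) and 3 between inhibitory and excitatory cells (from 1); over all genes it called 744 in place of 2533 and 534 in place of 183. Without the replicate block, which pairs classes cut from the same library, the counts were 6, 6, 3, 3, 3 and 4, and 0 between inhibitory and excitatory cells, where 107 of all genes were then called in place of 183 (714 at unadjusted p under 0.05), and DESeq2 called 111 genes and 1 member. The cause was not tested in these cases. Among the refitted settings, sign reversed for values that were not called in the reported fit. They were Fgf12 in trigeminal against excitatory cells (-0.40 thinned) and inhibitory against excitatory cells (0.01 with no doublet removal, 0.08 with 1 more gate UMI, 0.09 thinned). Fgf14 gave, in noradrenergic against excitatory cells, -0.01 for the 2 classes alone, -0.02 with 2 times the doublets removed, -0.12 thinned and -0.01 with gate genes at 1000 CPM, and -0.05 thinned against inhibitory cells. Thinned values also reversed for Scn2a in noradrenergic against excitatory (0.47), noradrenergic against granule (0.26) and inhibitory against excitatory cells (0.19), and for Scn3a in inhibitory against excitatory cells (0.39, where the reported -0.56 was not called but passed when those 2 classes were fitted alone). Of 48 tested gene and contrast pairs, 8 had a library whose fold differed in sign from the fit, and 1 of these was called: Scn8a in noradrenergic against granule cells, -1.13 without library 2 and 1.41 without library 1, the latter on 1 granule UMI. Depth limits Fgf11 and every granule value of library 2.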
